A study of Canis lupus familiaris with 8 samples.

Results

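The 7 genes described here encode transcription factors: PAX6, and PAX2, PAX8, LHX1, GATA3, TFCP2L1 and POU3F3, which act in the nephron and collecting duct lineages. They were chosen by symbol from the 37952 genes of the count table, with PAX6 already known to be lower after stretch, and all 7 were measured and passed the filter on low counts. Messenger RNA was sequenced from MDCK GII cells, an epithelial line derived from dog kidney, grown overnight as monolayers on a collagen-coated elastic silicone membrane. Control wells (n = 4) were not strained. Stretch wells (n = 4) were held under static strain of 18%, equal in both directions of the membrane, for 2 hours before lysis. No genotype or drug distinguished the groups. The labels call the wells technical quadruplets spread at random over several devices, so errors and p-values measure the spread between wells of 1 cell line.

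PAX proteins bind DNA through a paired domain. PAX2 and PAX8 act together at the start of kidney development and stay on in tubule cells, whereas PAX6 is best known as a regulator of the eye, brain and endocrine pancreas and carries a homeodomain as well. LHX1 is a LIM-homeodomain factor of the early nephron and the nephric duct. GATA3, a zinc-finger factor, guides growth of the nephric duct and ureteric bud and persists in the collecting duct. TFCP2L1, a grainyhead-related factor, maintains collecting duct cells, and POU3F3 is a POU-homeodomain factor needed for the loop of Henle and distal tubule.

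Total counts ranged from 27047358 to 32478887 per well. All 7 kidney epithelial markers examined were detected, but at very different levels. The keratin gene KRT8 led with 1370 RPKM in control wells (the CPM below divided by exon length in kilobases). CDH16, on the same list, had 20 to 59 counts per well and 0.382 RPKM in control wells. Summed, these markers spanned 5710 to 6470 CPM in control wells and 6030 to 6210 CPM in stretch wells (CPM: counts over TMM-adjusted library size). Markers of mature nephron segments were uneven. The 5 loop and distal tubule markers had at most 1 count in any well, as did the water channel gene AQP2, and LRP2, SLC34A1, AQP1 and SLC5A2 of the proximal tubule list had at most 4. CUBN, the receptor gene on that list, had 811 to 1446 counts per well, and the list summed to between 29.8 and 43.6 CPM in control wells and between 28.3 and 49.6 CPM in stretch wells. The collecting duct list summed to between 134 and 144 CPM in control wells and 136 and 147 CPM in stretch wells, most of it from the proton pump gene ATP6V1B1. Markers of other cell types were at 0 in every well for COL1A2, COL3A1 and TBX18 (stroma), EMCN (endothelium), PTPRC, CD3E and LYZ (leukocytes) and NPHS1 and PTPRO (podocytes), while other genes on these lists, led by PODXL at 324 CPM in control wells, were detected. Neural and eye markers, SOX2 among them, summed to between 32.6 and 39.8 CPM in control wells. Their sum was 32.3 to 35.5 CPM in stretch wells, and RAX and OLIG2 were at 0 in every well. A count of 0 allows up to 3 counts, or 0.111 CPM in the shallowest well, from counting error alone.

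PAX6 was lower after stretch. The gene lies on chromosome 18 from 36045041 to 36066313 on the plus strand (coordinates of the table, which match the RefSeq annotation of UU_Cfam_GSD_1.0), and reads were counted over 13 exons of 1513 bases in all. Its normalised read count was 23.2, 20.7, 20.5 and 19.6 CPM in control replicates 1 to 4. In stretch replicates 1 to 4 it was 17.5, 17.2, 13.3 and 14.6 CPM. Every stretch well lay below every control well, which held for 1.24% of the 14571 tested genes. The means were 21.0 ± 1.56 CPM and 15.6 ± 2.04 CPM (SD, n = 4 each), from raw counts of 387 to 641 per well. In bulk RNA, fewer cells with a transcript and less of it per cell cannot be told apart.

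The drop in PAX6 appeared in each same-numbered pair of wells, with log2 differences of -0.41, -0.27, -0.63 and -0.43 for replicates 1 to 4. All 4 pairs were lower for 7.84% of tested genes. The planned fit had no term for the replicate number. Same-numbered wells varied together across genes, so a blocked fit, with 1 term per replicate number, is given beside it. With the block, PAX6 fell by 25.9%, a log2 change of -0.43 ± 0.08 (SE; 95% interval -0.59 to -0.27), with an adjusted p of 0.00816 in edgeR's quasi-likelihood test. Without the block the log2 change was -0.43 ± 0.10 and the adjusted p was 0.456 in edgeR, with an unadjusted p of 9.69e-04. That fit called 0 of 14571 genes, although 579 (3.97%) had an unadjusted p under 0.05; DESeq2 without the block called 40 and limma-voom 0. In DESeq2 without the block, the adjusted p of PAX6 was 0.0317. With the block, the gene no longer passed when replicate 1 or replicate 4 was left out of both groups (edgeR, adjusted p = 0.095 and 0.0626), while its log2 change stayed between -0.48 and -0.37 over the 4 such omissions. The log2 change was -0.34 in replicates 1 and 2 alone and -0.52 in replicates 3 and 4 alone, and neither passed in edgeR's test of 2 wells against 2 (adjusted p = 0.278 and 0.079).

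**Figure D1:**
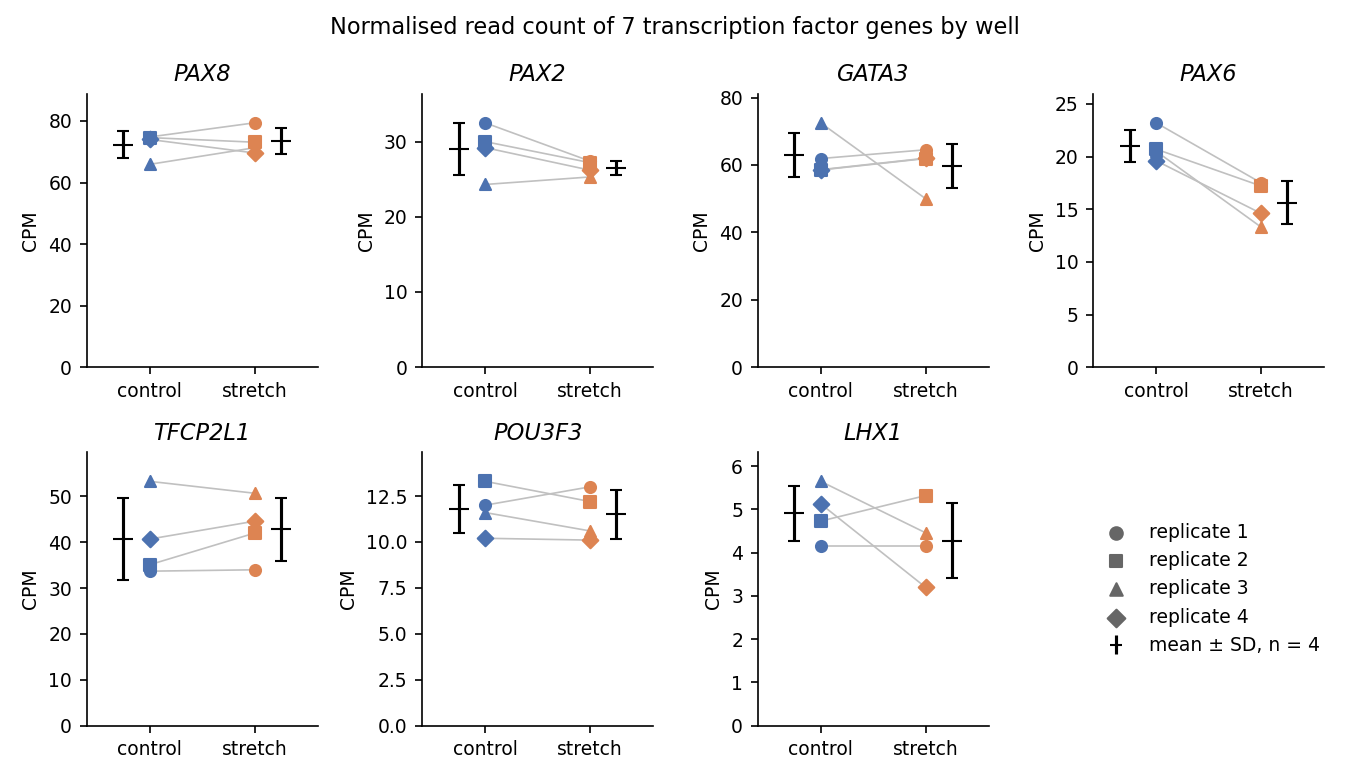
Normalised read count (CPM, linear axis from 0) of each of the 7 genes in control and stretch wells; marker shape gives the replicate number, grey lines join wells with the same number, and black bars give the mean ± SD of 4 wells. PAX6 is the panel in which every line goes down and the groups do not overlap (19.6 to 23.2 CPM against 13.3 to 17.5 CPM).

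Among the 7 genes, PAX6 was the 1 past the threshold with the block, against a background of 0.700% of tested genes (102 of 14571; 0.172% in the lower direction), and none passed without it in edgeR. The members were picked with this result known, so the share is a description. The other 6 genes overlapped between the groups.

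PAX8, the most abundant of the 7 per exon length, is a paired-domain factor kept on in adult tubules. It lies on chromosome 17 (37490112 to 37546218, minus strand) and was counted over 12 exons. Control replicates 1 to 4 had 74.8, 74.6, 65.9 and 74.0 CPM, and stretch replicates 1 to 4 had 79.4, 73.1, 71.3 and 69.6 CPM. Control replicate 3 was the lowest well, stretch replicate 1 the highest, and the pairs were divided, with 2 higher and 2 lower. With the block, the log2 change was 0.02 with a 95% interval from -0.08 to 0.12 (edgeR, adjusted p = 0.964), and its sign turned when control replicate 3 or stretch replicate 1 was left out of the fit without the block.

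PAX2, the paralog of PAX8 that acts with it at the start of kidney development, lies on chromosome 28 (13623521 to 13709771, plus strand). Its control replicates 1 to 4 had 32.5, 30.0, 24.3 and 29.2 CPM, and its stretch replicates had 27.4, 27.2, 25.3 and 26.2 CPM. The stretch wells sat close together, within the range of the control wells, and 3 of 4 pairs were lower. The log2 change with the block was -0.12 ± 0.06 (SE; 95% interval -0.26 to 0.01), which did not pass (edgeR, adjusted p = 0.627). How reads matching several PAX genes were assigned is not given in the sources used here.

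Ratios of raw counts within a well do not depend on library scaling. Counts of PAX6 per count of PAX8 were 0.310, 0.278, 0.311 and 0.265 in control replicates 1 to 4 and 0.220, 0.235, 0.186 and 0.209 in stretch replicates 1 to 4, with no overlap between the groups. Counts of PAX6 per count of PAX2 spanned 0.669 to 0.841 without strain and 0.524 to 0.639 with it, again with no overlap. Counts of PAX2 per count of PAX8 overlapped, at 0.369 to 0.434 without strain and 0.345 to 0.377 with it. Expressed per exon length, PAX6 made up 16.8 to 19.4% of the summed RPKM of these 3 PAX genes without strain and 12.7 to 15.4% with it. PAX8 made up 59.1 to 62.0% without strain and 64.0 to 66.8% with it. These ratios follow from the PAX6 values already given and were not tested separately.

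**Figure D2:**
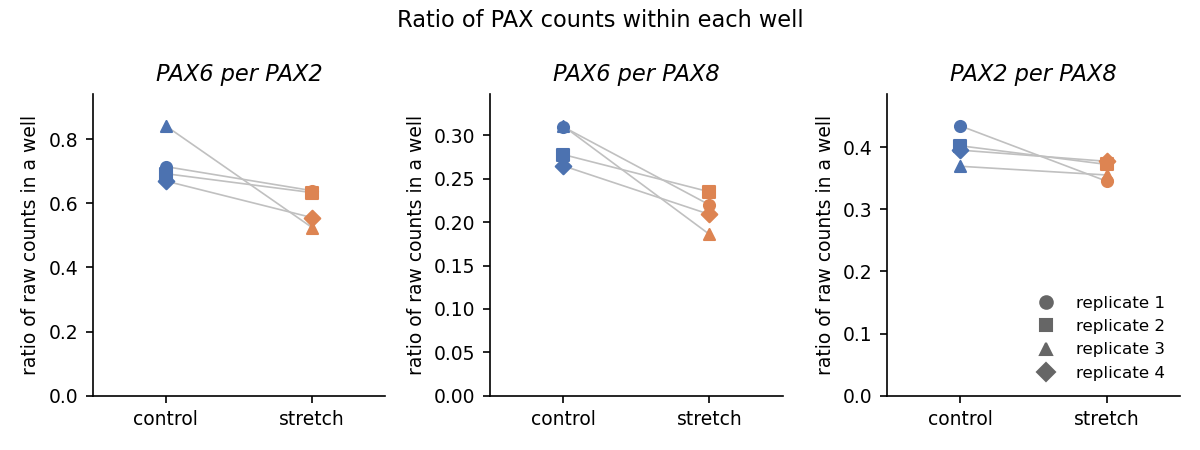
Ratio of raw counts of 2 PAX genes within each well (linear axis from 0), with wells of the same replicate number joined by a line and coded by marker shape. Both ratios with PAX6 on top separate the groups (PAX6 per PAX8 is 0.265 to 0.311 for control and 0.186 to 0.235 for stretch), whereas PAX2 per PAX8 overlaps.

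Of the remaining PAX genes, PAX9 alone passed the filter on low counts, at 3.55 ± 0.575 CPM in control wells and 3.19 ± 0.887 CPM in stretch wells (n = 4 each; blocked edgeR fit, adjusted p = 0.869). PAX1, PAX3, PAX4 and PAX7 had 0 counts in every well, and PAX5 had at most 2.

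The collecting duct factors GATA3 and TFCP2L1 did not pass in either fit. GATA3 lies on chromosome 2 (27112635 to 27142926, minus strand). It had 61.9, 58.5, 72.5 and 58.6 CPM in control replicates 1 to 4 and 64.5, 61.9, 50.0 and 62.0 CPM in stretch replicates 1 to 4. Replicate 3 held both extremes, the highest control well and the lowest stretch well, and its pair differed by -0.53 (log2) while the other pairs differed by 0.06 to 0.08. With the block the log2 change was -0.08 (95% interval -0.36 to 0.21; edgeR, adjusted p = 0.936). Leaving replicate 3 out of both groups turned it to 0.07 (blocked edgeR fit, adjusted p = 0.808). GATA3 overlaps LOC119871091 on the opposite strand, which had at most 156 counts per well against at least 1459 for GATA3. The strand setting of the counter is not given, so the value of GATA3 carries that uncertainty.

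TFCP2L1, on chromosome 19 (30283610 to 30339009, plus strand), varied more between control wells than any other of the 7. Control replicates 1 to 4 had 33.7, 35.1, 53.3 and 40.7 CPM, and stretch replicates had 34.0, 42.0, 50.7 and 44.6 CPM. Replicates 1 and 2 were below replicates 3 and 4 in both groups, whereas PAX6, PAX2, PAX8 and POU3F3 were above them in both, and the control SD was 21.9% of the mean against 2.86% from counting alone. The block therefore narrowed the standard error of its log2 change from 0.16 to 0.06. With the block the log2 change was 0.08 (95% interval -0.04 to 0.20; edgeR, adjusted p = 0.79), and 3 of 4 pairs were higher.

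POU3F3, the loop and distal tubule factor, is a gene of 1 exon on chromosome 10 (39565321 to 39566880, minus strand). It had 12.0, 13.3, 11.6 and 10.2 CPM in control replicates 1 to 4 and 13.0, 12.2, 10.6 and 10.1 CPM in stretch replicates 1 to 4. The ranges nearly coincided, and the log2 change with the block was -0.04 (95% interval -0.23 to 0.15; edgeR, adjusted p = 0.957).

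LHX1, the early nephron factor on chromosome 9 (36727884 to 36734417, plus strand), was the least abundant of the 7, with 103 to 167 counts per well. Control replicates 1 to 4 had 4.15, 4.73, 5.65 and 5.13 CPM, and stretch replicates had 4.15, 5.32, 4.46 and 3.20 CPM. The pairs did not move together, with log2 differences of 0.00, 0.17, -0.34 and -0.68 for replicates 1 to 4. With the block the log2 change was -0.21 ± 0.15 (SE; 95% interval -0.53 to 0.11), which did not pass (edgeR, adjusted p = 0.794). At this depth counting alone gives a spread of 8.23% in control wells, and a change as large as that of PAX6 lay inside the interval.

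The log2 change of PAX6 with the block, -0.43, lay outside the 95% intervals of PAX8, PAX2, GATA3, TFCP2L1 and POU3F3 and inside that of LHX1. Whether the changes of 2 genes differ was not tested.

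**Figure D3:**
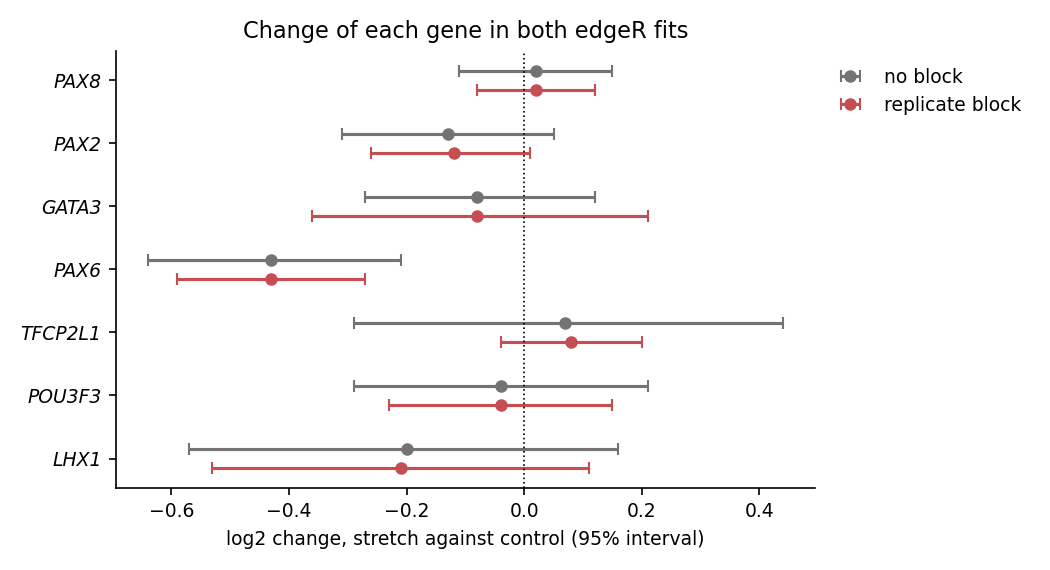
Log2 change of each gene, stretch against control, with its 95% interval in the edgeR fits without (grey) and with (red) the replicate block; the dotted line marks no change. The PAX6 interval with the block runs from -0.59 to -0.27, and with the block the intervals of the other 6 genes include 0.

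Levels of different genes can be set side by side only per exon length. In control wells PAX8 stood highest at 46.7 ± 2.77 RPKM (SD, n = 4), 2.89 times PAX2, with no overlap between their wells. PAX2 (16.2 ± 1.90 RPKM), GATA3 (15.0 ± 1.57 RPKM) and PAX6 (13.9 ± 1.03 RPKM) followed, and neighbours in this order overlapped. TFCP2L1 (9.93 ± 2.18 RPKM) overlapped both PAX6 above it and POU3F3 below it (7.55 ± 0.838 RPKM). LHX1 was lowest at 1.76 ± 0.228 RPKM, clear of POU3F3 in every well. Among the 14571 tested genes, these control levels ran from the 22.7th percentile (LHX1) to the 86.2nd percentile (PAX8), with PAX6 at the 61.4th percentile.

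After stretch PAX6 stood at 10.3 ± 1.35 RPKM (n = 4). In stretch wells its highest value, 11.6 RPKM, was below the lowest GATA3 value, 11.9 RPKM, and its mean was next to that of TFCP2L1 (10.5 ± 1.69 RPKM). The lengths are those of the gene models used for counting, which run from 1513 bases for PAX6 to 4197 bases for GATA3, and an incomplete model would shift a gene in this order.

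**Figure D4:**
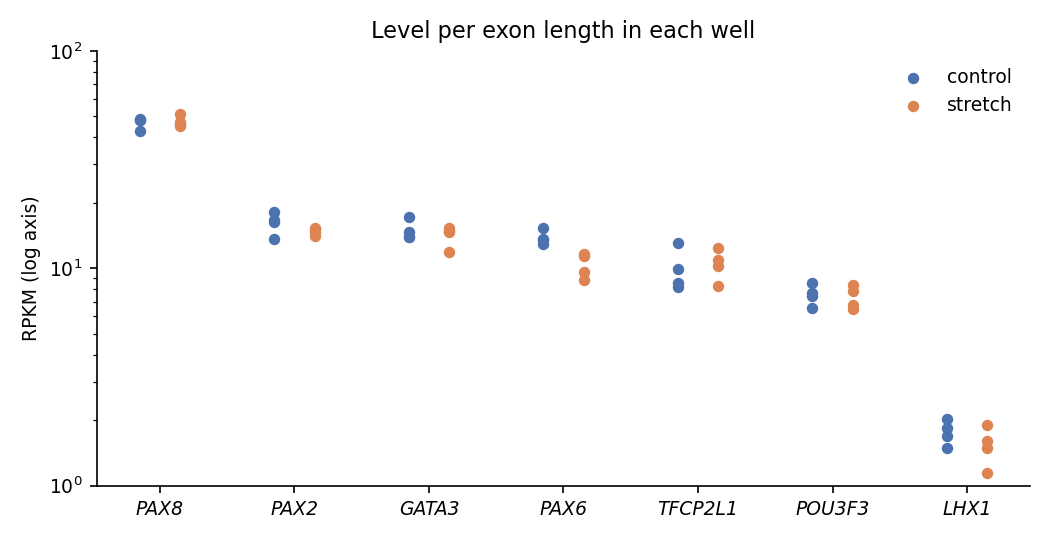
Level per exon length (RPKM, log axis) of the 7 genes in each of the 4 control and 4 stretch wells, ordered by the control mean. PAX8 lies above all others and LHX1 below all others in every well, and the PAX6 stretch wells (8.77 to 11.6 RPKM) lie below its control wells (12.9 to 15.3 RPKM).

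Against other kidney factors, the most abundant of 42 tested renal epithelial, progenitor and podocyte factors in control wells included KLF5 (138 RPKM), OSR1 (120 RPKM), ELF3 (58.4 RPKM) and CITED2 (39.3 RPKM). KLF5 is an epithelial zinc-finger factor, and OSR1 a zinc-finger factor of the earliest kidney field. Of these 42 factors, 4 stood above PAX8 and 12 above PAX6. WT1 and TCF21, which mark podocytes, were at 0 counts in every well, as was FOXI1, the intercalated cell factor, and SIX2, the nephron progenitor factor, had at most 3 counts.

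Of the 138 other listed genes, 85 were tested and 29 had 0 counts in every well. None of the 85 passed in edgeR with or without the block. With the block, 16 of the 85 (10 lower, 6 higher) had an unadjusted p under 0.05 in edgeR. That was 18.8%, beside 8.89% of all tested genes. Without the block it was 5 of the 85, beside 3.97% of all tested genes. None of these shares was tested, and the lists were chosen with earlier results of these data known. The groups did not overlap for 3 of the 85 (3.53%), SALL1, GRHL2 and SOX2, all lower. Of all 14571 tested genes, 371 did not overlap in either direction, and 1.24% did not overlap with stretch lower. All 4 pairs were lower for 12 of the 85 and higher for 7, where 7.84% and 8.45% of all tested genes did so. The median log2 change with the block was -0.028 over the 85 and -0.0022 over all tested genes.

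Among 30 tested renal epithelial factors, 13 had a log2 change above 0 and 17 below (median -0.033 with the block). The smallest p belonged to SIM1, ELF3 and IRX3. SIM1, a bHLH-PAS factor, went from 57.4 ± 9.22 to 48.7 ± 7.07 CPM, lower in 4 of 4 pairs (n = 4; blocked edgeR fit, log2 change -0.23, adjusted p = 0.0658). ELF3, an epithelial ETS factor, went from 124 ± 11.0 to 144 ± 11.6 CPM, higher in 4 of 4 pairs (blocked edgeR fit, log2 change 0.21, adjusted p = 0.115). IRX3, an Iroquois factor of the intermediate nephron, went from 47.1 ± 6.16 to 41.3 ± 3.13 CPM, lower in 4 of 4 pairs (blocked edgeR fit, adjusted p = 0.21).

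Of 12 tested progenitor and podocyte factors, 9 had a log2 change below 0 and 3 above (median -0.081 with the block). CITED2, a transcriptional coregulator, came closest to the threshold of all listed genes. Its control replicates 1 to 4 had 85.1, 87.1, 61.3 and 80.6 CPM and its stretch replicates 77.4, 57.3, 53.2 and 64.0 CPM. All 4 pairs were lower, although the groups overlapped (blocked edgeR fit, log2 change -0.32 ± 0.07, adjusted p = 0.0502). SALL1, a zinc-finger factor of nephron progenitors, went from 61.0 ± 3.77 to 54.1 ± 0.876 CPM without overlap (blocked edgeR fit, adjusted p = 0.168). SIX5 went from 6.75 ± 1.23 to 5.59 ± 0.435 CPM (blocked edgeR fit, adjusted p = 0.519).

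No cofactor or regulator of the 7 proteins passed. The 28 tested, which include the PAX adaptor gene PAXIP1, the LHX1 partner gene LDB1 and the GATA partner gene ZFPM1, had log2 changes from -0.12 to 0.16 with the block (median -0.029). The 3 with the smallest p were SSBP3, the coactivator gene CREBBP and LMO4, with log2 changes of 0.16, -0.10 and 0.13 and adjusted p of 0.507, 0.525 and 0.632 (blocked edgeR fit).

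Genes described elsewhere as targets of these factors were mostly silent, with 14 of 33 tested and 13 at 0 counts in every well, among them the PAX6 targets of lens and cornea CRYAA and KRT12. Of the 14, 10 had a log2 change above 0 and 4 below (median 0.027 with the block). The 3 with the smallest p were CRYAB, SOX2 and EFNB2. CRYAB, a small heat-shock protein gene, went from 151 ± 19.7 to 169 ± 16.7 CPM (blocked edgeR fit, adjusted p = 0.168). SOX2, which encodes a partner of PAX6 in the lens, had 15.2, 15.9, 17.6 and 15.9 CPM in control replicates 1 to 4. In stretch replicates 1 to 4, SOX2 had 14.0, 12.8, 14.1 and 14.6 CPM. Every stretch well was below every control well, with a log2 change of -0.22 that did not pass (blocked edgeR fit, adjusted p = 0.347). EFNB2 went from 2.01 ± 0.266 to 1.59 ± 0.164 CPM (blocked edgeR fit, adjusted p = 0.729).

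**Figure D5:**
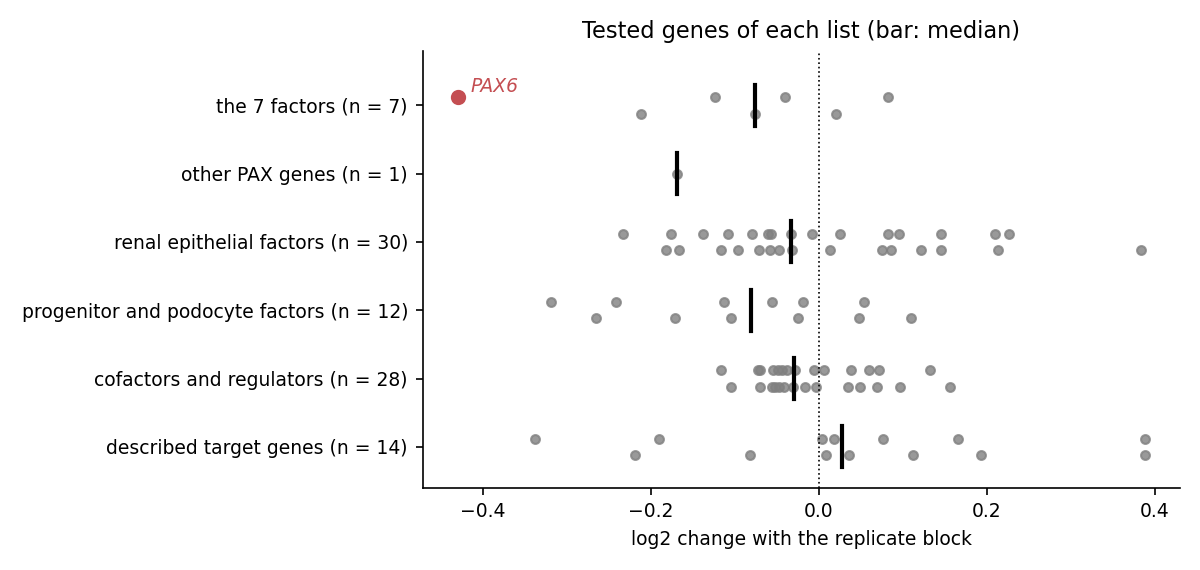
Log2 change with the replicate block of each tested gene in the 6 lists (points; n beside each name) and the median of each list (black bar). PAX6, at -0.43, is the lowest point of all, and the medians lie between -0.17, the single PAX9 value, and 0.03.

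The chromosomal neighbours of PAX6 gave no called change. No annotated gene overlaps it. ELP4, whose introns hold distal PAX6 enhancers in mammals, lies 5971 bases beyond its end and had a log2 change of -0.10 (blocked edgeR fit, adjusted p = 0.855). On the other side, LOC119864218 ends 5385 bases before it and had at most 1 count. Within 1 Mb on either side there were 8 tested genes, with log2 changes from -0.10 to 0.12 with the block, and 0 of them passed.

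The genes most like PAX6 over the 8 wells, among 11061 others of at least 5 CPM, were DTD2, SEPHS1, FAM102A, AXIN1 and BRD8. Their Pearson r of log2 CPM with PAX6 was 0.957, 0.952, 0.950, 0.948 and 0.944, given as a measure of likeness with no test, since the 5 were picked as the highest and all wells share the group difference. Their own log2 changes with the block were smaller in size, from -0.21 to -0.09, and none passed (edgeR, smallest adjusted p = 0.0505, for BRD8). By the same measure, PAX2 was most like SCRN2, ZNF518A and VLDLR (r from 0.956 to 0.965), and PAX8 was most like GRHPR, FOXO4 and LOC119869333 (0.970 to 0.981). GATA3 was most like KREMEN1, SOX12 and RNF6 (0.961 to 0.985), and TFCP2L1 was most like SOX13, CCNT1 and DENND3 (0.978 to 0.986). POU3F3 was most like NUP133, MYBL1 and SAMHD1 (0.966 to 0.989), and LHX1 was most like SNHG3, LOC119877526 and SELENOH (0.913 to 0.944).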

How the data were processed

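The authors deposited 1 table of raw counts, 1 value per gene and well summed over exons, from polyA-selected stranded TruSeq libraries, per the labels' protocols. The submitters' processing notes name FastQC 0.11.8, Trim Galore 0.6.5, STAR 2.7.3a, Subread and featureCounts. Strand setting, treatment of multi-mapping reads and genome build are not given in the sources used here; 37291 table genes had the same symbol, start and end in the RefSeq gene table of UU_Cfam_GSD_1.0, from which chromosome numbers were taken. Columns were matched to the 8 wells by library name, and the exon length per gene in the deposited table gave RPKM.

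Counts were tested over all 14571 genes kept by filterByExpr (minimum count 10, minimum total 15) with TMM factors and the quasi-likelihood test of edgeR 4.0.16 (robust; R 4.3.3), adjusted by Benjamini-Hochberg with a threshold of 0.05. The planned model had no block. The numbers in the titles were taken to pair wells because deviations from the group means correlated within every number. These correlations were 0.328, 0.108, 0.182 and 0.178 for replicates 1 to 4. The mean between different numbers, -0.066, is fixed by them, since deviations sum to 0 within a group, and is no separate evidence. The pairing was not tested. Log2 CPM for likeness used a prior count of 2. Scripts were tested on simulated data.

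The 7 genes and all lists were chosen with earlier results of these data known. Named were the 7 genes; of each other list the genes past the threshold with the block or else the 3 with the smallest p; the most abundant other factors (some listed genes are not reported here); the neighbours of PAX6; and the most similar genes, 5 for PAX6 and 3 for each other gene. Alternatives were DESeq2 1.42.0, limma-voom (limma 3.58.1), other scaling factors and filters, both blocks and omission of wells or pairs. Figures used matplotlib 3.10.9.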

Additional observations from a re-analysis of the deposited data

Results flagged for a closer look

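PAX8 in control replicate 3 stood at 65.9 CPM, below a tight cluster of 74.0 to 74.8 CPM formed by control replicates 1, 2 and 4, a gap of 0.906 of the range of the group. It was the 1 such well in the 14 groups of 4 wells examined (7 genes, both groups), of which chance would give about 0.7. Without this well the log2 change of PAX8 was -0.0207 in place of 0.0208, and PAX8 passed under none of the 30 alternatives run.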

How the results depend on the processing

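PAX6 was lower under all 30 alternatives, with a log2 change from -0.518 to -0.341, and passed in 12 of them. It was -0.427 in DESeq2 without a block, where it passed (adjusted p = 0.0317). With the replicate block it was -0.431, with the block of 2 levels (replicates 1 and 2, replicates 3 and 4) -0.431, and with the replicate block -0.432 in DESeq2, -0.428 in limma-voom, -0.431 with DESeq2 size factors, -0.427 with upper-quartile factors, -0.428 with library size only, -0.430 with no filter and -0.428 with at least 10 counts in every well. In these settings it was the 1 gene of the 7 that passed, and the block changed no other call among them. Leaving out single wells gave -0.483 to -0.355 and pairs -0.482 to -0.370, with 0 to 1 of the 7 genes called.

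Over all genes, the count called was 0 without a block, 40 in DESeq2, 11 with no filter, 0 to 12 without single wells, 51 in replicates 1 and 2 alone and 25 in replicates 3 and 4 alone. It was 102 with the replicate block, 58 with the block of 2 levels, and with the replicate block 145 in DESeq2, 122 in limma-voom, 105, 112 and 111 under the 3 other scalings, 448 with no filter, 97 with at least 10 counts in every well and 43, 67, 186 and 74 without pairs 1 to 4.

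Of the other listed genes, 0 passed in the planned fit, and with the replicate block 2 in DESeq2, 1 in limma-voom, 5 with no filter and 0 to 5 without pairs. Signs turned for changes that passed in no setting run: PAX8 without single wells (-0.0207 to 0.0485) or pairs (-0.0108 to 0.0576, and -0.00131 without pair 1); GATA3 without single wells (-0.113 to 0.000909), without pairs (-0.130 to 0.0739) and in replicates 1 and 2 alone (0.0711); TFCP2L1 (-0.0154 to 0.231) and POU3F3 (-0.105 to 0.0284) without single wells; and LHX1 in replicates 1 and 2 alone (0.0891). The cause was not tested. PAX2 kept its sign under all 30 alternatives, but its log2 change ran from -0.204 to -0.0519. Control levels of the 7 genes moved by less than 1 SD. Depth limits LHX1 most, at 103 to 167 counts per well.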

Other observations

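Some of the listed kidney genes passed under some alternatives with the replicate block and not in the replicate-block fit itself. CITED2 was lower and passed in edgeR with no filter (log2 change -0.32), in DESeq2 (adjusted p = 0.00227), in limma-voom (adjusted p = 0.0399) and without replicate 3 (edgeR, adjusted p = 0.0105). ELF3 was higher and passed in DESeq2, in edgeR with no filter and without replicate 4 (adjusted p = 0.0431, 3.65e-04 and 0.0377). SIM1 was lower and passed in edgeR with no filter and without replicate 4 (adjusted p = 0.00366 and 0.0313). The Notch ligand gene JAG1 was higher with no filter and without replicate 3 (edgeR, adjusted p = 0.0219 and 2.16e-04). The Notch output gene HES1 was higher without replicate 3 (edgeR, log2 change 0.27, adjusted p = 0.0138). With all replicates the log2 change of HES1 was 0.08 (blocked edgeR fit, adjusted p = 0.965). Its replicate 3 pair differed by -0.51 (log2), while the other pairs were higher. IRX3 and OSR1 were lower without replicate 3 (edgeR, adjusted p = 0.0302 and 0.0397), and CRYAB was higher with no filter (edgeR, adjusted p = 0.0107).

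Of the 7 genes, 5 divided replicates 1 and 2 from replicates 3 and 4 without overlap within each group: TFCP2L1, lower in replicates 1 and 2, and PAX6, PAX2, PAX8 and POU3F3, higher in them. For TFCP2L1 in control wells, replicates 1 and 2 had 33.7 to 35.1 CPM and replicates 3 and 4 had 40.7 to 53.3 CPM. In stretch wells, the same numbers had 34.0 to 42.0 CPM and 44.6 to 50.7 CPM. PAX6 had 20.7 to 23.2 CPM and 19.6 to 20.5 CPM in control wells, and 17.2 to 17.5 CPM and 13.3 to 14.6 CPM in stretch wells. In control wells the gap was narrow for PAX8 (74.6 against 74.0 CPM) and PAX2 (30.0 against 29.2 CPM) as well. GATA3 and LHX1 showed no such division in both groups. The share of all tested genes with such a division was not counted, so 5 of 7 is a description. No label says what the numbers share.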
